A study of Mus musculus with 6 samples.

Results

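The genes described here are 8 genes of iron uptake, storage and export, of 27514 gene identifiers listed for both preparations. They were chosen by symbol, and each was followed by its Ensembl identifier through all 6 libraries. *Tfrc*, *Trf* and *Slc11a2* serve uptake, *Fth1*, *Ftl1* and *Ncoa4* serve storage, *Slc40a1* serves export, and *Hmox1* releases iron from heme. The libraries hold single-cell RNA sequencing of 2 preparations. Prep 1 came from the cerebral cortex of C57Bl/6J mice aged 3 weeks and prep 3 from the hippocampus of C57Bl/6J mice aged 5 weeks. In each preparation the cells of 3 female mice were pooled into 1 suspension, and that suspension was run as 3 technical replicates. The labels name no allele beyond this strain and no treatment. In both preparations the mice were perfused with cold saline, the tissue was briefly digested with enzymes and myelin was removed on a Percoll gradient. Each condition is therefore 1 biological sample. No test was possible, no p-value was computed, and the SD given is that of the 3 technical replicates. Region, age and preparation differ together between prep 1 and prep 3 and cannot be told apart, and the gene annotation behind the counts differs between them too.

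Iron reaches the brain mainly as ferric iron bound to transferrin, the product of *Trf*. The transferrin receptor, encoded by *Tfrc*, takes it up at the blood-brain barrier, and DMT1, encoded by *Slc11a2*, moves ferrous iron out of the endosome. Inside the cell iron is stored in ferritin, a shell of heavy (*Fth1*) and light (*Ftl1*) chains that the receptor encoded by *Ncoa4* delivers to the lysosome for release. Ferroportin, encoded by *Slc40a1*, is the known exporter of iron from cells. *Hmox1* encodes heme oxygenase 1, by which macrophages recover iron from heme. Oligodendrocytes are known as iron-rich cells of the brain, and microglia and macrophages store and recycle iron.

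Much of this control acts on the messenger RNA. Iron regulatory proteins bind a short hairpin, the iron-responsive element, and are known to block translation from a 5′ UTR and to protect the transcript from a 3′ UTR. UTRs of the members were searched for this hairpin in GENCODE release M21 on GRCm38, with the motif C, any 5 bases, CAGTGN, any 5 bases, read on the strand of the transcript, and with 5 base pairs required between both arms of the stem. Of 21901 protein-coding genes 160 held a match (0.731%), and of the 8 members *Fth1*, *Ftl1*, *Slc40a1* and *Tfrc* did. The 30 bases around each match are printed here because they set the uptake gene apart from the storage and export genes by position, with the 6 bases of the loop in capitals.
Fth1 5′ UTR, chr19:9982732-9982761, plus strand: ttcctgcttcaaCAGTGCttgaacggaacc
Ftl1 5′ UTR, chr7:45459778-45459807, minus strand: gtcttgcttcaaCAGTGTttgaacggaaca
Slc40a1 5′ UTR, chr1:45925464-45925493, minus strand: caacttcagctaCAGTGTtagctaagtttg
Tfrc 3′ UTR, chr16:32631219-32631248, plus strand: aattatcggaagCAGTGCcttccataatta
Tfrc 3′ UTR, chr16:32631598-32631627, plus strand: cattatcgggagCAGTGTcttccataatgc
Tfrc 3′ UTR, chr16:32631663-32631692, plus strand: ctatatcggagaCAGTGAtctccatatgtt
Tfrc 3′ UTR, chr16:32631710-32631739, plus strand: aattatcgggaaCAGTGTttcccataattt
In the UTRs searched, the matches of both ferritin chains and of ferroportin lay before the coding sequence, whereas the 4 matches of *Tfrc* lay after it. A match is a description of the sequence only. No match with all 5 pairs was found in the UTRs of *Trf*, *Slc11a2*, *Ncoa4* and *Hmox1*. Hairpins with an unpaired or extra base in the stem are missed by this search. A missing match therefore does not show that a gene lacks the element. The levels given next are transcript levels, so any effect on translation was not measured.

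The libraries held 39662203 to 50024850 UMIs (unique molecular identifiers, each counting 1 captured RNA molecule) over 4894 to 6121 barcodes, of which 4351 to 4830 were kept. Clusters were formed without the 8 members and named from marker genes, and a name ending in "-like" stands for such a class. Levels are given as CPM, the UMIs of a gene scaled to a total of 1000000 UMIs over the shared identifiers of the class, as the mean ± SD of the 3 technical replicates. The counts come from the 3′ end of transcripts and are not scaled by gene length, so levels were compared between classes and not between genes, apart from the 2 ferritin chains. Library barcodes overlapped in 83 of 17937 barcodes in prep 1 and in 926 of 15336 in prep 3. In prep 3 the shared barcodes included 88.9% of a shallow choroid plexus epithelium-like cluster of 624 cells. Shared barcodes also included 49.7% of the monocyte/neutrophil-like cells and 21.3% of the ependymal-like cells of prep 3.

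**Figure D1:**
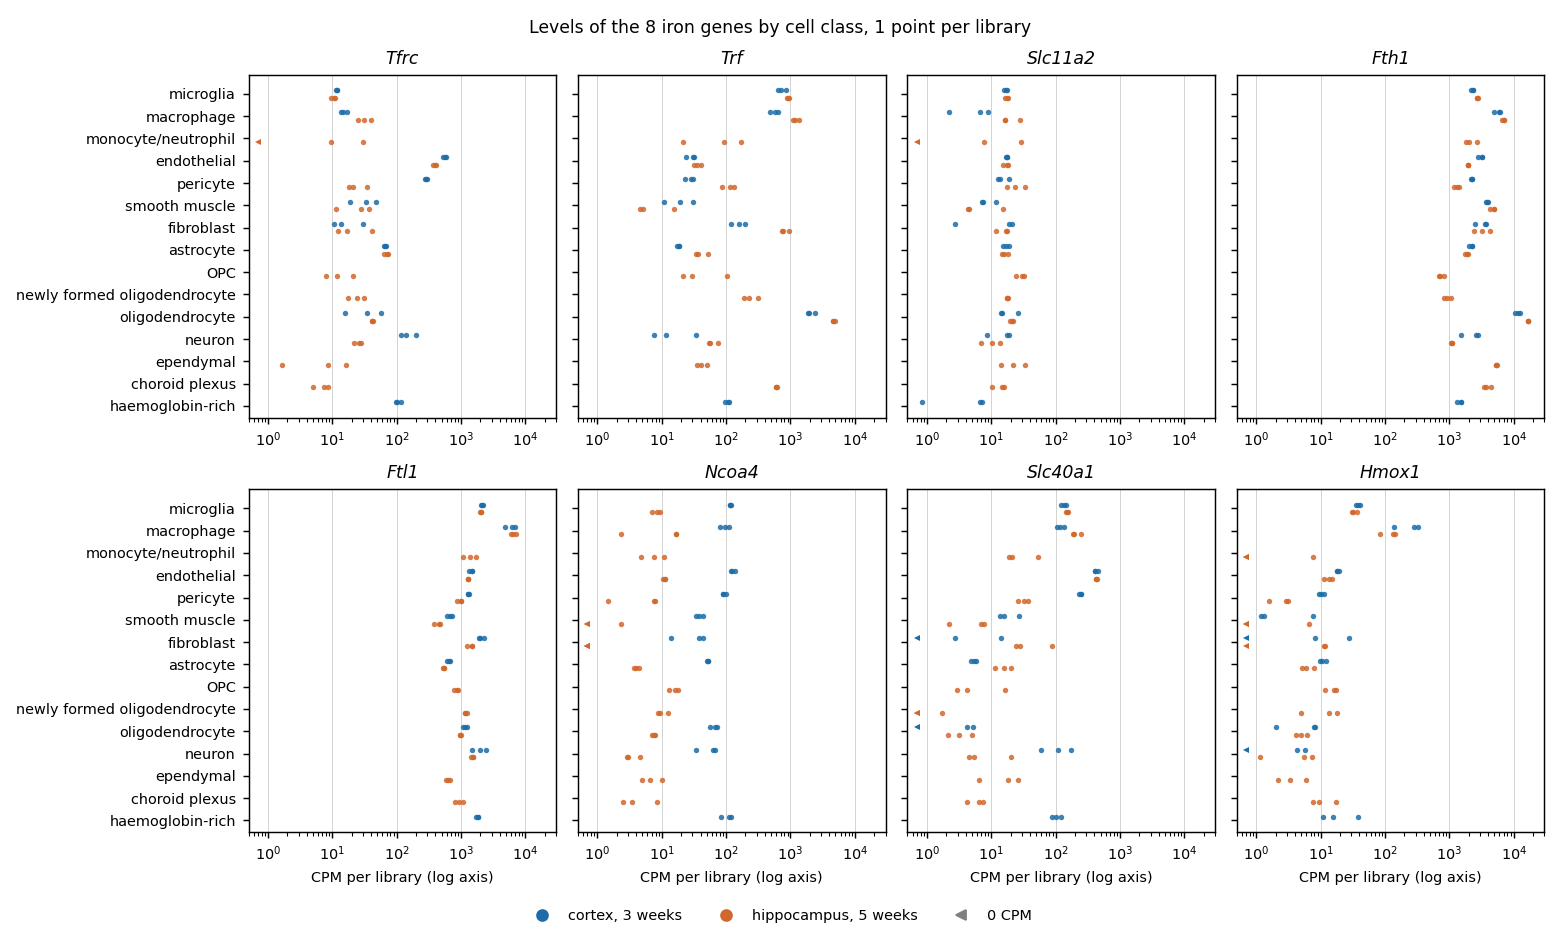
Level of each of the 8 members (horizontal axis, CPM on a log scale, 1 panel a gene) in the cell classes (vertical axis) of prep 1 (cortex, blue) and prep 3 (hippocampus, orange), with each point standing for 1 technical replicate and triangles at the left edge for a level of 0. *Tfrc* and *Slc40a1* peak in endothelial-like cells, *Trf* and *Fth1* in mature oligodendrocyte-like cells, *Ftl1* and *Hmox1* in macrophage-like cells, and *Ncoa4* lies far lower in prep 3 in every class compared.

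The highest class was the same in both preparations for 6 of 8 members. It was the endothelial-like class for *Tfrc* and *Slc40a1*, the mature oligodendrocyte-like class for *Trf* and *Fth1*, and the macrophage-like class for *Ftl1* and *Hmox1*. For *Slc11a2* and *Ncoa4* the highest class differed between the preparations.

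*Tfrc* (chr16:32608920-32632794, plus strand) was an endothelial transcript in both preparations. In endothelial-like cells it stood at 581, 565 and 527 CPM in the replicates of prep 1 and at 398, 404 and 371 CPM in those of prep 3. The replicates of prep 1 all lay above those of prep 3, but by less than 2-fold. In prep 3 the next named class was astrocyte-like at 69.5 ± 4.40 CPM, 5.63-fold lower with no overlap of replicates. After it came mature oligodendrocyte-like cells at 42.1 ± 0.568 CPM, and from macrophage-like cells (31.7 ± 7.62 CPM) down most neighbours in the order overlapped. Choroid plexus epithelium-like cells were lowest at 6.96 ± 1.83 CPM (n = 3 replicates, 21 UMIs), with 5.85 CPM in their deep cluster of 201 cells and 13.2 CPM in the shallow cluster. With shared barcodes left out these were 5.86 CPM and, on 2 UMIs, 25.4 CPM. Microglia-like cells stood at 11.8 ± 0.221 CPM in prep 1 and 10.4 ± 0.779 CPM in prep 3.

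After each cell was thinned to 1000 UMIs, a *Tfrc* UMI was found in 39.2% of endothelial-like cells of prep 1 and in 30.1% of those of prep 3. The same share was 1.21% and 1.05% in microglia-like cells, a class low in *Tfrc* but not shown to lack it. The 12 endothelial markers summed to 77.8 and 85.8 CPM in microglia-like cells. At the ratio of *Tfrc* to these markers in endothelial-like cells, that corresponds to 1.69 and 1.21 CPM of *Tfrc*. Measured levels were 11.8 and 10.4 CPM, and the source of the rest was not tested.

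In prep 1 pericyte-like cells ranked next for *Tfrc*, at 285 ± 11.2 CPM, but their cluster also held endothelial transcripts. All 12 endothelial markers were detected in it, summing to 14192 CPM (13407 to 15089), against 25652 CPM in endothelial-like cells. At the ratio of *Tfrc* to these markers in endothelial-like cells, that level corresponds to 309 CPM of *Tfrc*, above the 285 CPM measured. In prep 3 the markers summed to 857 CPM (831 to 892) in pericyte-like cells and *Tfrc* stood at 24.7 ± 9.05 CPM. Neuron-like cells of prep 1, at 152.5 ± 41.6 CPM, likewise held the endothelial list at 4933 CPM (3741 to 5920). An unnamed cluster of 177 cells in prep 3, with the endothelial list at 16105 CPM (15419 to 16835), held *Tfrc* at 206 ± 18.9 CPM and *Slc40a1* at 242 ± 30.4 CPM. The part of endothelial RNA in these levels was not tested.

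*Trf* (chr9:103204001-103230444, minus strand) was highest in mature oligodendrocyte-like cells, where it stood at 2373, 1930 and 1893 CPM in prep 1 and at 4876, 4647 and 4646 CPM in prep 3. It was 2.78-fold above the next class in prep 1 and 3.93-fold in prep 3, with no overlap of replicates in either. Outside this lineage it was also abundant in the myeloid classes. Microglia-like cells stood at 647, 722 and 858 CPM in prep 1 and at 932, 917 and 894 CPM in prep 3. Macrophage-like cells stood at 567 ± 75.4 CPM and 1203 ± 123 CPM. Thinned to 1000 UMIs, 50.1% of microglia-like cells of prep 1 and 57.4% of those of prep 3 had a *Trf* UMI, against 1.66% and 2.39% of endothelial-like cells.

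The 13 markers of mature oligodendrocytes were also measured in the myeloid classes. In microglia-like cells they summed to 55.8 CPM (51.9 to 60.2, with 2 markers at 0) in prep 1 and to 262 CPM (233 to 298, none at 0) in prep 3. At the ratio of *Trf* to these markers in mature oligodendrocyte-like cells, these sums correspond to 1.30 and 13.5 CPM of *Trf*. In macrophage-like cells the corresponding values were 3.20 and 11.5 CPM. The part of oligodendrocyte RNA in the myeloid *Trf* beyond this was not tested.

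The choroid plexus epithelium-like cells of prep 3 held *Trf* at 590, 604 and 623 CPM. The deep cluster stood at 641 CPM with all cells and with shared barcodes left out, and the shallow cluster at 442 CPM with them and 862 CPM in the 69 cells left without them. The mature oligodendrocyte markers summed to 222 CPM there (196 to 255, 1 of 13 at 0), which corresponds to 11.4 CPM of *Trf*. Fibroblast-like cells stood at 159 ± 38.9 CPM in prep 1 and 819 ± 126 CPM in prep 3. They also held the microglia list at 4603 CPM (2587 to 5864) and 5319 CPM (2833 to 6958), with no marker of 12 at 0, and its part in their *Trf* was not tested. Endothelial-like cells, the cells that import transferrin-bound iron, held 28.9 ± 4.39 and 35.7 ± 4.12 CPM of *Trf*.

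*Slc11a2* (chr15:100387898-100425072, minus strand) was low and flat over the classes, but not over the microglia subclusters given below. It ranged from 4.89 to 18.4 CPM over the classes of prep 1 and from 8.14 to 28.9 CPM over those of prep 3. Microglia-like cells stood at 16.9 ± 0.980 and 17.4 ± 0.885 CPM, and endothelial-like cells at 17.5 ± 0.404 and 16.9 ± 1.51 CPM. The classes named highest, mature oligodendrocyte-like cells in prep 1 and OPC-like cells (oligodendrocyte precursors) in prep 3, overlapped the next class in their replicates, so no class stood out.

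*Fth1* (chr19:9980598-9985098, plus strand) was highest in mature oligodendrocyte-like cells, at 12313.5, 11861 and 10536 CPM in prep 1 and at 16966, 16756 and 16946 CPM in prep 3. Macrophage-like cells followed at 5694 ± 688 CPM and 6999 ± 269 CPM, 2.03-fold and 2.41-fold lower, with no overlap of replicates. Next came ependymal-like cells of prep 3 at 5389 ± 132 CPM and vascular smooth muscle cell (VSMC)-like cells at 3888 ± 159 and 4715 ± 386 CPM. Choroid plexus epithelium-like cells stood at 3675, 4435 and 3475 CPM, with 3403 CPM in the shallow cluster and 3913 CPM in the deep one, and 2942 and 3914 CPM without shared barcodes. The 115 shallow ependymal-like cells stood at 5874 CPM with shared barcodes and 5701 CPM without, and the 96 deep ones, which had none, at 5329 CPM. In endothelial-like cells the level was 3055 ± 230 CPM in prep 1 and 1946 ± 27.7 CPM in prep 3, and in microglia-like cells 2262 ± 102 and 2728 ± 30.9 CPM. OPC-like cells of prep 3 were lowest at 746 ± 80.4 CPM, so both ends of the *Fth1* order in the hippocampus belonged to the oligodendrocyte lineage.

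*Ftl1* (chr7:45457944-45459884, minus strand) had another order. Macrophage-like cells led with 4741, 6174 and 6955 CPM in prep 1 and 6476, 7147 and 5980 CPM in prep 3, and microglia-like cells followed at 2106 ± 90.5 and 2023 ± 23.2 CPM. In prep 1 microglia-like cells overlapped fibroblast-like cells (2050 ± 175 CPM). Mature oligodendrocyte-like cells stood at 1172 ± 81.7 and 978 ± 12.4 CPM, in the lower part of the order. Astrocyte-like cells (642 and 545 CPM) and VSMC-like cells (670 and 432 CPM) were lowest. Its processed copy *Ftl1-ps1* took 0.912% as many UMIs as *Ftl1* in prep 1 and 0.167% in prep 3. Reads that match both the gene and the copy were not examined. No UMI fell on the *Fthl17* genes, the close relatives of *Fth1*.

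Set against each other, the 2 ferritin chains gave ratios that differed widely between classes. UMIs of *Fth1* exceeded those of *Ftl1* by 9.88 ± 0.556 times in mature oligodendrocyte-like cells of prep 1 and by 17.3 ± 0.333 times in those of prep 3. The ratio was 5.82 and 10.9 in VSMC-like cells, 8.59 in ependymal-like cells, 4.14 in choroid plexus epithelium-like cells, and 3.39 and 3.43 in astrocyte-like cells. It was 2.13 and 1.52 in endothelial-like cells, 1.07 and 1.35 in microglia-like cells and 0.966 and 1.07 in macrophage-like cells. Monocyte/neutrophil-like cells of prep 3, of which 49.7% had a shared barcode, stood at 1.56 ± 0.0915, which overlapped endothelial-like cells. The ratio was lowest in neuron-like (0.715), newly formed oligodendrocyte-like (0.792) and OPC-like cells (0.886) of prep 3 and in the haemoglobin-rich cells of prep 1 (0.812), whereas neuron-like cells of prep 1 spread from 0.625 to 1.92. As lengths are not scaled, the order of these ratios over classes can be read, and a ratio of 1 does not mean equal numbers of chains. Both chains together made up 1.28% and 1.79% of all UMIs in mature oligodendrocyte-like cells and 1.18% and 1.36% in macrophage-like cells. The mature oligodendrocyte-like class of prep 1 was not uniform, as given below. In lineage cells with at least 6% of UMIs on mature markers, *Fth1* and *Ftl1* stood at 18818 and 1048 CPM in prep 1. In prep 3 they stood at 16832 and 970 CPM. The part of this make-up in the ratio and share of that class was not tested.

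*Slc40a1* (chr1:45908068-45926523, minus strand) shared its leading class with *Tfrc*. Endothelial-like cells held 460, 405 and 404 CPM in prep 1 and 419, 420 and 434 CPM in prep 3, and the replicates of the 2 preparations overlapped. Microglia-like cells held 134 ± 11.4 and 150 ± 6.22 CPM, and macrophage-like cells 120 ± 13.03 and 209 ± 33.7 CPM. The exporter was scarce in astrocyte-like, mature oligodendrocyte-like and choroid plexus epithelium-like cells. Astrocyte-like cells stood at 5.40 ± 0.435 and 16.0 ± 4.53 CPM. Mature oligodendrocyte-like cells stood at 3.14 ± 2.78 CPM in prep 1, on 4 UMIs, and at 3.43 ± 1.44 CPM in prep 3. Choroid plexus epithelium-like cells stood at 6.01 ± 1.61 CPM. The deep choroid plexus cluster held 4.60 CPM with shared barcodes and without, and the shallow one 11.3 CPM on 6 UMIs with them and 25.4 CPM on 2 UMIs without. Thinned to 1000 UMIs, 32.5% and 32.1% of endothelial-like cells had a *Slc40a1* UMI, against 0.279% and 1.41% of astrocyte-like cells. The 244 ± 11.6 CPM in pericyte-like cells of prep 1 compares with 234 CPM at the endothelial ratio of the list given above for *Tfrc*.

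*Hmox1* (chr8:75093621-75100589, plus strand) was a macrophage transcript with a wide spread between technical replicates. Macrophage-like cells held 136, 286 and 324 CPM in prep 1 and 82.5, 145 and 132 CPM in prep 3, so the preparations overlapped. Microglia-like cells followed at 38.0 ± 2.13 and 32.9 ± 3.26 CPM and endothelial-like cells stood at 18.5 ± 0.468 and 13.3 ± 1.71 CPM. The macrophage-like class was mixed. Its cells held 12 macrophage markers at 6992 CPM (5643 to 7662) in prep 1 and 11727 CPM (9841 to 14118) in prep 3, with none at 0. They also held 12 monocyte and neutrophil markers at 20253 CPM (13378 to 29120, none at 0) and 11213 CPM (8305 to 15265, 1 at 0). At a resolution of 0.5 prep 1 had 168 macrophage-like cells. At a resolution of 1.0 it had 109 macrophage-like and 59 monocyte/neutrophil-like cells, and with shared barcodes left out 110 and 58. Prep 3 had 184 macrophage-like cells at both resolutions. The part of monocytes in the macrophage-like levels was not tested. Likewise *Fos*, *Jun*, *Atf3* and the other genes of a list of 12 dissociation-responsive genes summed to 7998 and 8661 CPM in macrophage-like cells and to 8779 and 9457 CPM in microglia-like cells, against 2671 and 3490 CPM in endothelial-like cells, and their part in *Hmox1* was not tested.

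*Ncoa4* (chr14:32159865-32179855, plus strand) was spread over all classes of prep 1, from 127 ± 8.03 CPM in endothelial-like and 116 ± 1.32 CPM in microglia-like cells to 52.0 ± 1.21 CPM in astrocyte-like and 32.1 ± 16.0 CPM in fibroblast-like cells. In prep 3 it was low everywhere. Endothelial-like cells held 11.1 ± 0.580 CPM, microglia-like cells 8.34 ± 1.16 CPM, choroid plexus epithelium-like cells 4.79 ± 3.24 CPM and astrocyte-like cells 4.05 ± 0.327 CPM. The choroid plexus level came from the deep cluster, at 5.43 CPM with shared barcodes and 5.44 CPM without, as the shallow cluster held 1 and 0 UMIs. The highest level of prep 3 was 15.6 ± 2.56 CPM in OPC-like cells, on 11 UMIs. Fibroblast-like cells of prep 3 had no *Ncoa4* UMI, which with a floor of 3 UMIs allows up to 6.98 CPM.

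The 2 oligodendrocyte classes were compared further because the mature oligodendrocyte-like class of prep 1 held only 72 cells, against 1075 in prep 3, and was not uniform. Cells of the lineage were grouped by the share of their UMIs on the 13 mature markers, with bounds set after the values had been seen. In prep 3 *Fth1* stood at 824 CPM in cells under 1% (110 cells), 1015 CPM from 1 to 3% (60 cells), 6347 CPM from 3 to 6% (111 cells) and 16832 CPM from 6% up (1054 cells). *Trf* went from 31.5 to 133, 2124 and 4688 CPM over the same steps. *Ftl1* stayed between 927 and 1307 CPM, so the 2 ferritin chains parted along the lineage. *Slc48a1*, which encodes a heme transporter, went from 46.0 to 727 CPM from the first step to the last.

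In prep 1, 37 of the 72 cells held under 3% of their UMIs on the mature markers, and the median cell had 1057 CPM of *Fth1* against 16591 CPM in prep 3. The 28 cells from 6% up held *Fth1* at 18818 CPM (18520 to 19119, exact Poisson interval) and *Trf* at 3389 CPM (3263 to 3518). In prep 3 the same step held 16832 CPM (16778 to 16885) and 4688 CPM (4660 to 4716). These intervals cover counting error only. The steps group cells of all classes of the lineage. With the mature oligodendrocyte-like class alone, limited to its cells from 6% up, the log2 ratio of prep 3 over prep 1 was 0.48 for *Trf*. It was 1.19 for the whole class. For *Fth1* it was -0.14, against 0.54 for the whole class. Neither of the 2 ratios reached 2-fold in these cells.

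**Figure D2:**
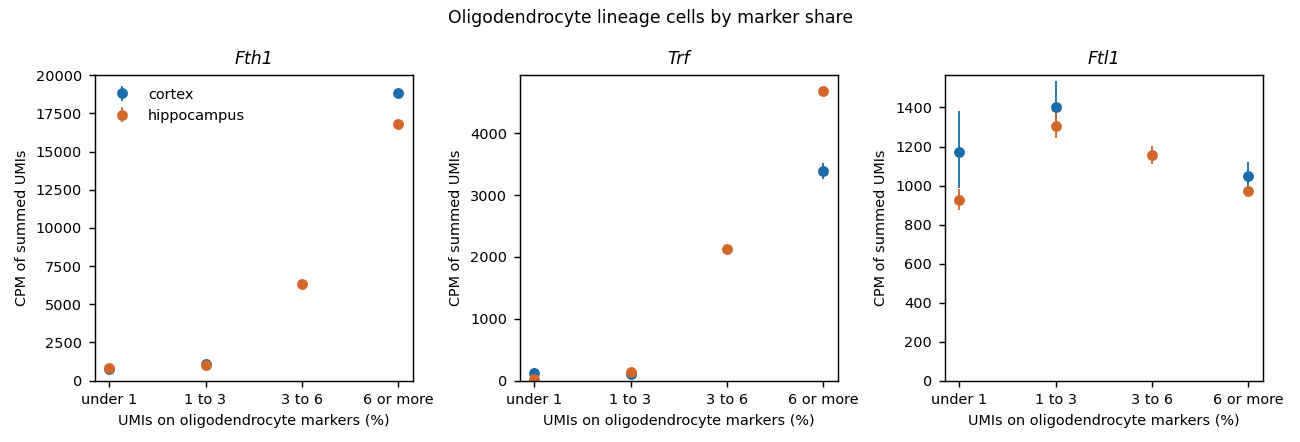
Levels of *Fth1*, *Trf* and *Ftl1* (vertical axis of each panel, CPM on a linear scale from 0) in cells of the oligodendrocyte lineage grouped by the share of their UMIs on mature oligodendrocyte markers (horizontal axis, percent), for prep 1 (blue, with no point from 3 to 6%) and prep 3 (orange), with exact Poisson 95% intervals as bars. *Fth1* and *Trf* are more than 10-fold higher in the last group than in the first, while *Ftl1* is nearly level.

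Between the preparations, a member was called when it differed by at least 2-fold and all 3 replicates of one preparation lay above all 3 of the other, with at least 50 UMIs in the class. This is a description of size, not a test, and each count is read against the percent of all genes called in the same class. In microglia-like cells 1 of 8 members was called, against 5.03% of 12065 genes. In endothelial-like cells it was 1 of 8 against 5.31%, and in both the member was *Ncoa4*. In macrophage-like cells 3 of 7 were called (8.01% of genes), in astrocyte-like cells 3 of 8 (9.6%) and in mature oligodendrocyte-like cells 2 of 8 (14.9%). In pericyte-like cells the count was 4 of 7 (17.9%), in VSMC-like cells 2 of 6 (3.94%), in fibroblast-like cells 1 of 3 (7.28%) and in neuron-like cells 5 of 7 (25.1%). The members' median log2 ratio was -0.01 in microglia-like cells and -0.32 in endothelial-like cells, against 0.10 and 0.15 over all genes.

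**Figure D3:**
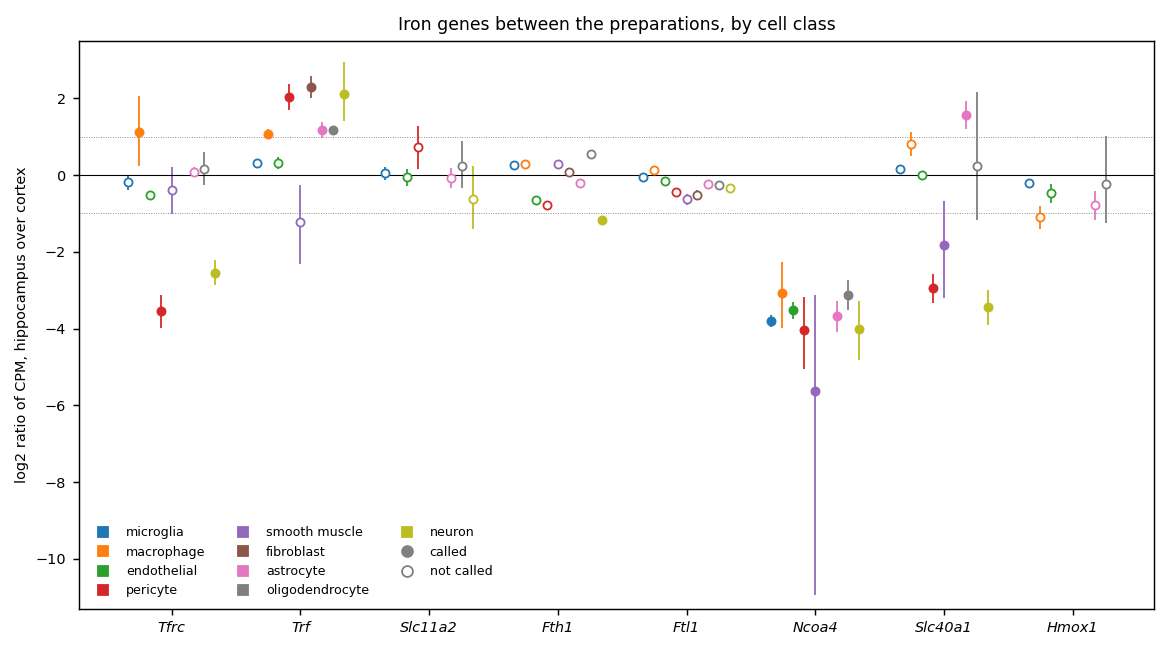
The log2 ratio of prep 3 over prep 1 (vertical axis) for each member (horizontal axis) in the classes compared (colours), with dotted lines at the 2-fold limit, with exact conditional intervals at 95% as bars, filled where called and open where not. *Ncoa4* lies between -5.63 and -3.07 in the classes with at least 50 UMIs, while the other members lie within 1 unit of 0 in microglia-like and endothelial-like cells.

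Without *Ncoa4*, iron genes of microglia-like cells were close in both preparations. The log2 ratios ran from -0.21 for *Hmox1* and -0.19 for *Tfrc* to 0.27 for *Fth1* and 0.30 for *Trf*. In endothelial-like cells *Slc40a1* differed by 0.00 (-0.04 to 0.05), *Tfrc* by -0.51 (-0.56 to -0.47) and *Fth1* by -0.65 (-0.67 to -0.63). For *Tfrc* and *Fth1* all replicates of prep 1 lay above all of prep 3. The make-up of the endothelial-like class differed between the preparations, by the subclusters given below. Arterial-like subclusters held 7.56% of its subclustered cells in prep 1, and 24.1% and 1.26% in prep 3. Tip-cell-like cells made up 10.4% in prep 1 and 1.16% in prep 3. The part of this make-up in the endothelial ratios was not tested. In macrophage-like cells *Trf* was called higher in prep 3 by 1.07 (0.93 to 1.20), and *Tfrc* by 1.12 (0.25 to 2.06) on 16 and 39 UMIs. *Hmox1* differed by -1.11 (-1.41 to -0.81) but its replicates overlapped. Over 21 settings of the analysis *Trf* was called in 12, *Tfrc* in 9 and *Hmox1* in 5, so the macrophage calls depended on the settings, whereas *Ncoa4* was called in all 21.

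In astrocyte-like cells *Trf* was called higher in prep 3 by 1.17 (18.2 ± 0.844 to 41.1 ± 9.96 CPM) and *Slc40a1* by 1.56 (1.20 to 1.93). The mature oligodendrocyte list went from 42.4 CPM (35.7 to 49.2, 2 of 13 at 0) to 275 CPM (230 to 318, 1 at 0) in the same cells, and the endothelial list from 40.2 (33.8 to 54.1) to 268 CPM (159 to 381) with none of 12 at 0. At their ratios these correspond to 0.987 and 14.2 CPM of *Trf* and to 0.663 and 4.10 CPM of *Slc40a1*. Their part in these calls beyond that was not tested. In pericyte-like cells *Tfrc* (-3.54) and *Slc40a1* (-2.95) were called lower in prep 3 while the endothelial list stood at 14192 and 857 CPM, and *Trf* was called higher by 2.02 (1.69 to 2.37). In VSMC-like cells *Slc40a1* was called lower by -1.82 on 46 and 7 UMIs, with the endothelial list at 1138 CPM (728 to 1772) and 607 CPM (295 to 1036), none of 12 at 0. Its 19.3 CPM in prep 1 compares with 18.8 CPM at the endothelial ratio. In fibroblast-like cells *Trf* was called higher by 2.29 (2.00 to 2.58), from 147 and 339 UMIs. That class joined 2 clusters in prep 1, with 57 cells led by *Ptgds*, *Dcn* and *Col1a1* and 20 led by *Ptgds*, *Mgp* and *Dcn*, and was 1 cluster of 51 cells led by *Dcn*, *Ptgds* and *Apod* in prep 3.

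In neuron-like cells *Tfrc* (-2.54), *Slc40a1* (-3.44), *Fth1* (-1.18) and *Ncoa4* (-4.01) were called lower and *Trf* higher (2.12). The neuron-like class of prep 1 held 100 cells and markers of other types. Its endothelial list was 4933 CPM against 178 CPM (56.6 to 269) in prep 3. Its monocyte and neutrophil list was 6461 CPM, ranging from 281 to 13137 CPM over replicates, against 154 CPM (107 to 196, 5 of 12 at 0). Among its 10 leading genes were also *Top2a* and *Mki67*, genes of cycling cells. In prep 3 a neuron-like cluster of 52 cells was led by *Top2a*, *Mki67* and *Ube2c*. The part of cycling cells in the neuron-like ratios was not tested. When cells were classed by their own marker UMIs, 0 members were called in neuron-like cells, against 17.3% of all genes.

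*Ncoa4* was the only member called lower in prep 3 in each of the 8 classes where it had at least 50 UMIs. The log2 ratio was -3.81 (-3.97 to -3.65) in microglia-like, -3.52 (-3.75 to -3.30) in endothelial-like, -3.68 (-4.10 to -3.29) in astrocyte-like, -3.07 (-3.99 to -2.26) in macrophage-like and -3.13 (-3.51 to -2.75) in mature oligodendrocyte-like cells. It was -4.04 (-5.06 to -3.19) in pericyte-like, -4.01 (-4.82 to -3.27) in neuron-like and, on 92 and 1 UMIs, -5.63 (-10.9 to -3.11) in VSMC-like cells. The intervals of microglia-like and mature oligodendrocyte-like cells did not overlap, but they cover counting error only. The make-up of the mature oligodendrocyte-like class also differed between the preparations, as given above. Whether the size of the difference varies between classes was not tested. Over all barcodes the gene held 97.3 CPM in prep 1 and 7.33 CPM in prep 3. In each of 3 classes, the microglia-like, the endothelial-like and the astrocyte-like one, 10209 genes were tested in common. Of these 29 (0.284%) were at least 4-fold lower in all 3 classes with log2 ratios within 1 unit of each other. *Ncoa4* was the only member among the 29. They also held *Ftl1-ps1*, the processed copy of *Ftl1*, at -2.99, -2.96 and -3.33, which is listed as *Gm10116* in prep 3. In microglia-like cells 26 of 12065 genes lay as low as or lower than *Ncoa4*, in endothelial-like cells 31 of 11780, and in astrocyte-like cells 33 of 12057. The count was 8 of 6951 in VSMC-like and 28 of 5546 in macrophage-like cells. It was larger in neuron-like (119 of 10461), pericyte-like (182 of 9447) and mature oligodendrocyte-like cells (199 of 10453).

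The neighbours of *Ncoa4* on chromosome 14 did not share the difference as a block. *Dph3* stood at 59.8 and 59.9 CPM, *Parg* at 21.6 and 25.8 CPM, *Oxnad1* at 10.6 and 14.1 CPM and *Timm23* at 2.42 and 4.18 CPM. Lower in prep 3 were *Ogdhl*, at 3.89 and 0.304 CPM, and *Galnt15*, at 6.53 and 3.66 CPM. *Gm17210* was also lower, on 13 and 2 UMIs, and *Msmb* held 2 and 0 UMIs. No other gene of the GENCODE annotation overlapped *Ncoa4*. The 2 preparations were counted with gene lists of 31053 and 27998 identifiers, so their annotations were not the same, and the gene model of *Ncoa4* in each list was not examined. Identifiers listed for only 1 preparation held 0.196% of UMIs in prep 1 and 0.0915% in prep 3. For *Ncoa4* the region, the age and the annotation cannot be told apart.

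Within the endothelial-like class, subclusters were formed without the members and without the wider list of iron genes. Both barrier genes were lowest in arterial-like cells. In prep 1 the 221 arterial-like cells held *Tfrc* at 160, 95.6 and 134 CPM and *Slc40a1* at 202, 124 and 159 CPM. The 807 and 793 cells of the largest subclusters, unnamed and rich in capillary markers, held *Tfrc* at 526 ± 36.0 and 742 ± 25.5 CPM and *Slc40a1* at 392 ± 33.0 and 514 ± 63.6 CPM. No replicate of the arterial-like cells reached these. From summed UMIs *Tfrc* of prep 1 was highest in a shallow unnamed subcluster of 242 cells (median 1949.5 UMIs per cell), at 899 CPM. The part of cell quality in that level was not tested. In prep 3 the 499 arterial-like cells held *Tfrc* at 160, 191 and 133 CPM and *Slc40a1* at 247, 232 and 225 CPM, and the 986 unnamed cells held 536 ± 37.5 and 513 ± 33.2 CPM. A further 26 arterial-like cells of prep 3 held *Tfrc* at 19.0 ± 16.5 CPM and *Slc40a1* at 13.5 ± 3.84 CPM, the lowest of all. The summed dissociation list was higher in the arterial-like cells, at 3675 CPM (3352 to 4027) in prep 1 against 2721 and 2506 CPM in the 2 largest subclusters, and at 5131 CPM (4769 to 5424) in prep 3 against 2527 CPM in the 986 unnamed cells. Its part in these levels was not tested.

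Venous-like cells held both genes and led in *Slc40a1* among endothelial-like subclusters of at least 50 cells. In prep 1 the 167 venous-like cells held *Tfrc* at 569 ± 57.5 CPM and *Slc40a1* at 557 ± 62.8 CPM, which overlapped the unnamed subclusters. In prep 3 the 226 venous-like cells held *Tfrc* at 489 ± 58.8 CPM and *Slc40a1* at 618, 595 and 613 CPM, above every replicate of the 986 unnamed cells. Among the subclusters of at least 50 cells *Fth1* was highest in the venous-like cells of both preparations. These stood at 4375, 5721 and 6032 CPM in prep 1, followed by the 305 tip-cell-like cells (3450, 4277 and 3997 CPM). In prep 3 the venous-like cells stood at 2491 ± 305 CPM. *Trf* was 348 and 471 CPM only in subclusters that carried microglia markers (93 and 55 cells), of which 89.2% and 81.8% were called doublets.

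**Figure D4:**
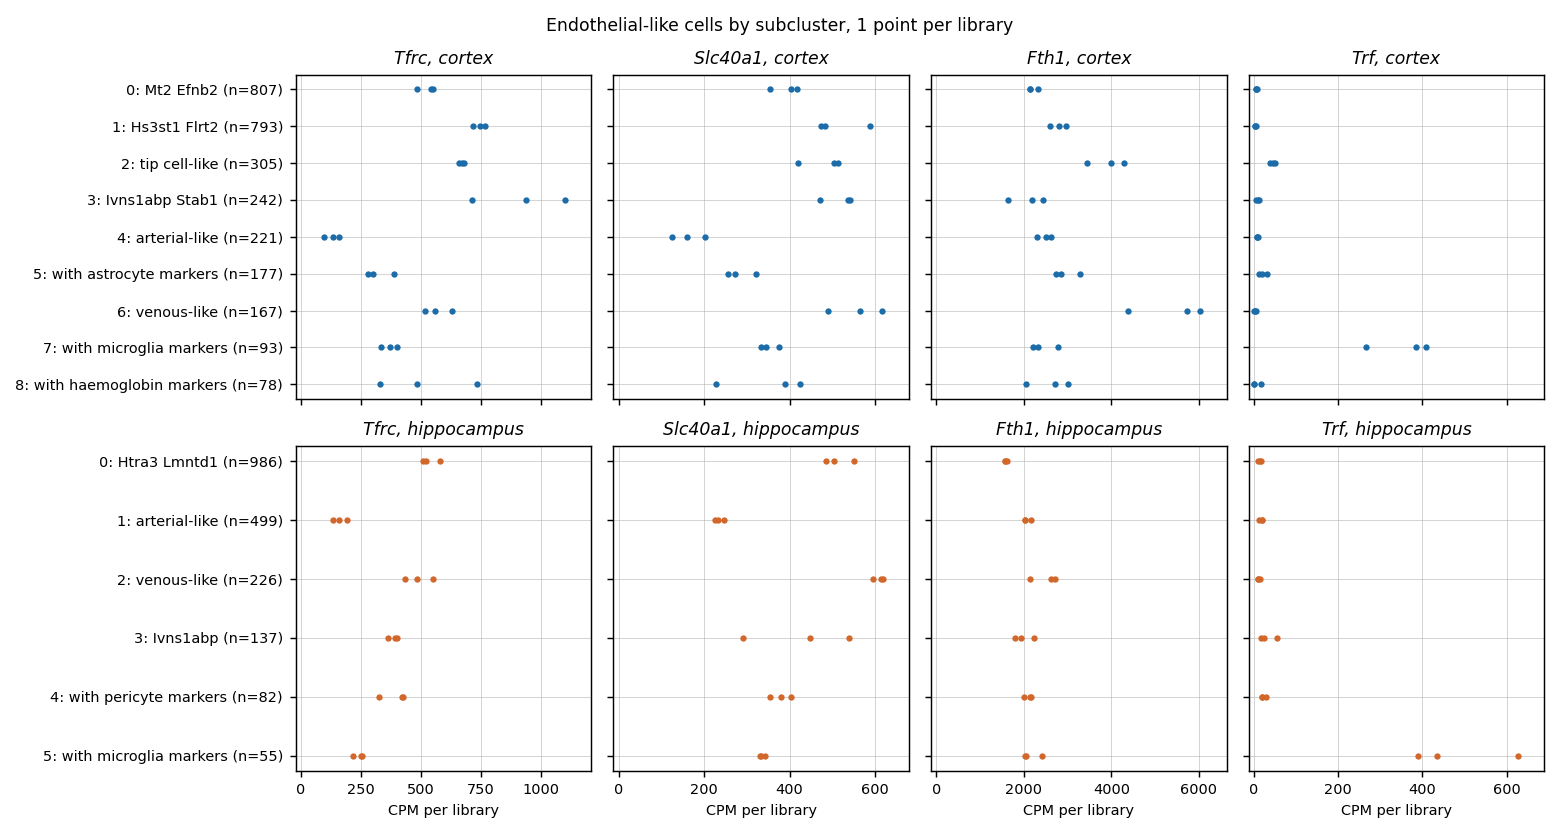
Levels of *Tfrc*, *Slc40a1*, *Fth1* and *Trf* (horizontal axis, CPM) in the endothelial subclusters of at least 50 cells (vertical axis) of prep 1 (upper row) and prep 3 (lower row), with each point standing for 1 technical replicate. Arterial-like cells lie lowest for *Tfrc* and *Slc40a1* in both preparations.

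Microglia-like cells also held a subset with more ferritin. A subcluster led by *Cst7*, *Csf1* and *Plaur* in prep 1 (357 cells) and by *Gas2l3*, *Plaur* and *Cst7* in prep 3 (353 cells) stood above the largest subcluster (2370 and 2311 cells) for both chains in both preparations. Its *Fth1* was 3082, 3712 and 3221 CPM in prep 1 and 4267, 3941 and 4296 CPM in prep 3, against 2054 ± 103 and 2194 ± 40.7 CPM in the largest. Its *Ftl1* was 3467 ± 66.0 and 4372 ± 119 CPM, against 1733 ± 89.7 CPM in prep 1 and 1493, 1524 and 1534 CPM in prep 3 in the largest. For *Ftl1* the largest subcluster of prep 3 was the lowest of 10, so every other one also stood above it. *Hmox1* was 81.0 ± 3.20 and 91.3 ± 18.8 CPM, against 29.6 ± 1.82 and 24.5 ± 2.37 CPM. *Slc40a1* went the other way in prep 3, at 96.0 ± 14.2 CPM against 173 ± 10.9 CPM, and overlapped in prep 1, at 122 ± 15.4 CPM against 134.5 ± 12.5 CPM.

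The summed dissociation list was higher in these subclusters than in the largest in both preparations. It was 6118 CPM (5777 to 6595) against 5488 CPM (5453 to 5509) in prep 1 and 8169 CPM (7696 to 8482) against 6810 CPM (6698 to 6971) in prep 3, and its part in the difference was not tested. It was 29650 and 26069 CPM in subclusters led by *Atf3* or *Nr4a1* and other immediate early genes (302 and 238 cells), where *Hmox1* was 49.7, 91.6 and 68.4 CPM in prep 1 and 34.7, 58.7 and 96.7 CPM in prep 3 and *Ftl1* was 3646 ± 170 and 2334 ± 338 CPM. *Fth1* and *Ftl1* were highest of all in shallow subclusters led by *Cstb* alone (219 and 250 cells, median 1225 and 1828 UMIs per cell), at 4400 ± 637 and 5364 ± 772 CPM for *Fth1*. *Slc40a1* was lowest there, at 69.0 ± 27.3 and 56.5 ± 9.51 CPM. From summed UMIs *Slc11a2* was also lowest there, at 2.94 CPM in prep 1 and 6.26 CPM in prep 3. It was highest in the *Cst7*-containing subclusters, at 27.5 and 34.3 CPM, with no overlap of replicates between these 2 kinds of subcluster. The part of cell quality in these 2 shallow subclusters was not tested. *Trf* varied less, from 577 to 839 CPM over the subclusters of prep 1 and from 582 to 999 CPM over those of prep 3.

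**Figure D5:**
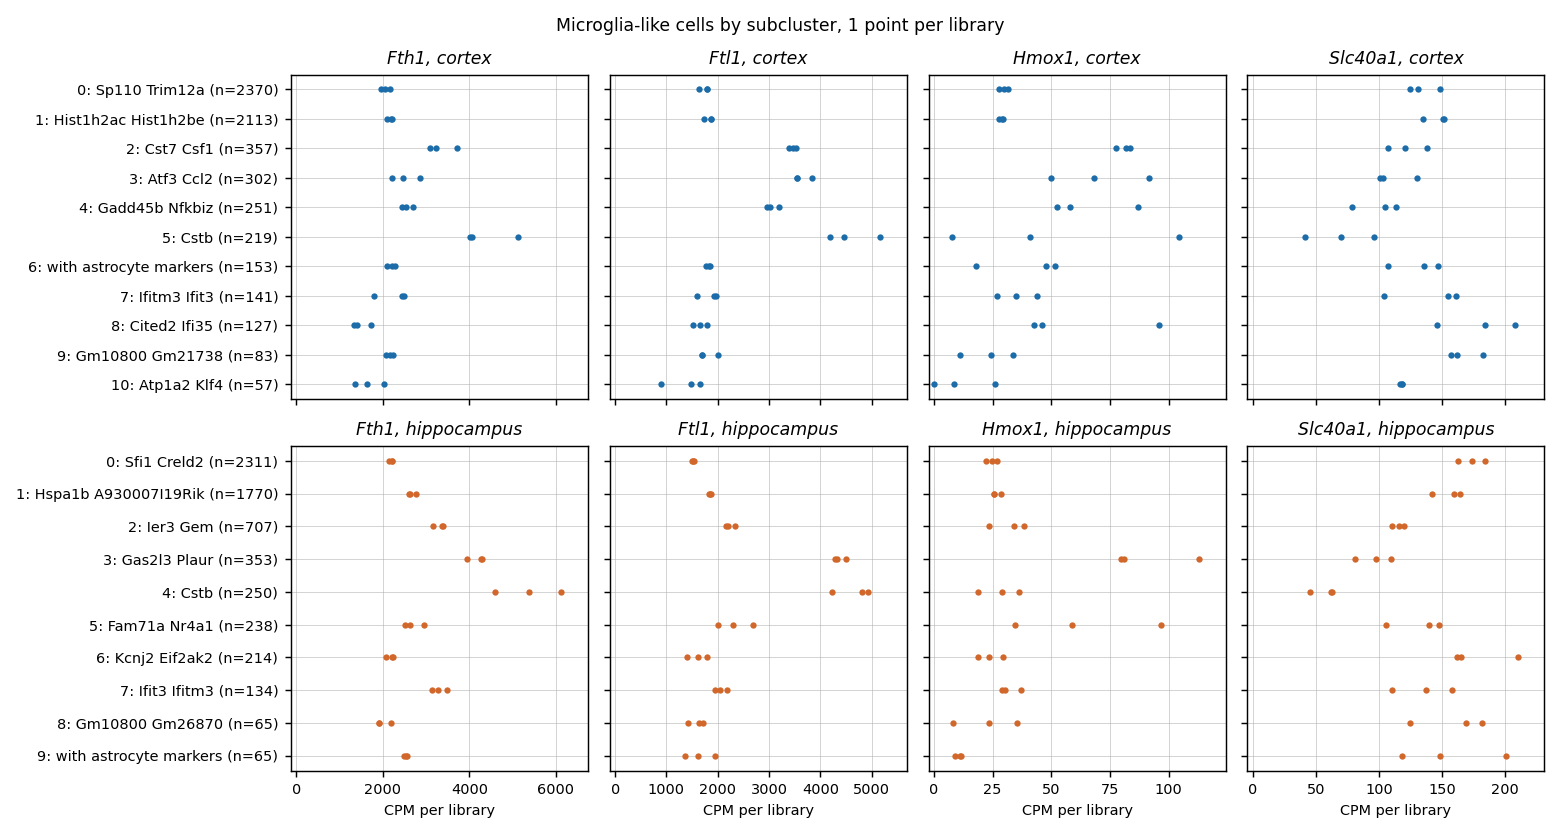
Levels of *Fth1*, *Ftl1*, *Hmox1* and *Slc40a1* (horizontal axis, CPM) in the microglia subclusters of at least 50 cells (vertical axis, named by their leading genes) of prep 1 (upper row) and prep 3 (lower row), with each point standing for 1 technical replicate. The *Cst7*-containing subclusters lie above the largest subcluster for *Fth1*, *Ftl1* and *Hmox1*.

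A wider list of 52 genes of iron and heme handling was examined for context, of which 51 had an identifier. In microglia-like cells 0 of 35 and in macrophage-like cells 0 of 25 genes with at least 50 UMIs were called, and in VSMC-like cells 0 of 26. In endothelial-like cells 0 of 37 were higher and 1 was lower in prep 3. In astrocyte-like cells 2 of 37 were higher and 0 lower, in mature oligodendrocyte-like cells 0 of 31 higher and 2 lower, and in fibroblast-like cells 1 of 23 higher and 1 lower. In pericyte-like cells 2 of 35 were higher and 5 lower, and in neuron-like cells 4 of 33 were higher and 4 lower. The percent of all genes called in each class is the one given above for the members.

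Of the uptake genes on this list, *Lcn2*, a siderophore-binding protein, was the endothelial gene called, at 25.2 and 5.09 CPM, and it led the venous-like subcluster of prep 1. Its highest class was macrophage-like in prep 1, at 36.6, 702 and 53.5 CPM, and monocyte/neutrophil-like in prep 3, at 655, 90.5 and 545 CPM. *Slc39a8*, a transporter of divalent metals, was highest in endothelial-like cells at 177.5 and 136 CPM. Its 94.2 CPM in pericyte-like cells of prep 1 and 6.12 CPM in those of prep 3 went with the endothelial list. *Hfe*, a partner of the transferrin receptor, was highest in macrophage-like cells at 281 and 261 CPM. *Steap3*, a ferrireductase of endosomes, was highest in fibroblast-like cells at 80.3 and 102 CPM.

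Of the heme genes, *Abcg2*, an efflux transporter of the barrier, was highest in endothelial-like cells at 679 and 704 CPM, as was *Alas1*, the first enzyme of heme synthesis, at 276 and 222 CPM. *Blvrb*, a biliverdin reductase, was highest in macrophage-like cells at 355 and 471 CPM, the class that also led in *Hmox1*. *Slc48a1* was highest in mature oligodendrocyte-like cells at 375.5 and 731 CPM. In lineage cells with at least 6% of UMIs on mature markers it stood at 603 and 727 CPM.

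Of the other groups, *Cp*, the ferroxidase ceruloplasmin, was highest in fibroblast-like cells and called higher in prep 3, at 374 and 816 CPM. *Bmp6*, an inducer of hepcidin, was called lower in the same cells, from 282 to 18.6 CPM, with the make-up of that class differing between the preparations as given above. *Fbxl5*, which marks an iron regulatory protein for degradation, was highest in mature oligodendrocyte-like cells at 119 and 208 CPM. *Slc25a37*, a mitochondrial iron importer, was highest in the haemoglobin-rich cells of prep 1, at 186 CPM. In microglia-like cells, its highest class in prep 3, it was at 80.2 and 79.9 CPM. It was called lower in mature oligodendrocyte-like cells, from 10.3 to 4.18 CPM. That class held 72 cells in prep 1 and differed in make-up between the preparations as given above. The part of this in the levels of *Fbxl5* and *Slc25a37* was not tested.

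The genes most alike in pattern were found by Pearson's r of log2(CPM + 5) over 24 profiles of class by preparation, among 9033 genes with at least 50 CPM in 1 profile. The profiles share libraries and cells, so r is a description and has no p-value. *Tfrc* was most like *Sox7* (r = 0.92), *Unc45b* and *Slc38a5* (both 0.91), and *Slc40a1* most like *Fli1* (0.96), *Lmo2* (0.94) and *Arap3* (0.93). *Hmox1* was most like *Fcgr4* (0.92), *Bcl2a1a* (0.89) and *Clec4a3* (0.86). *Trf* was nearest to *Aldh3b1* (0.85), *Pepd* (0.82) and *Man1a* (0.81), and *Fth1* to *Synj2* (0.79), *Adssl1* (0.78) and *Dock5* (0.76). *Slc11a2*, the flattest member over the classes, was nearest to *Acot2* (0.78), *Zmpste24* (0.77) and *Gcc2* (0.76). *Ncoa4* was nearest to *Amd2* (0.88), *Sbno2* (0.84) and *Wdfy2* (0.83), and all 3 of these are among the 29 genes that were at least 4-fold lower in the 3 classes above. The profiles span both preparations, so r draws together genes that are lower throughout prep 3. This overlap rests on the same values and is no separate result. Among the members themselves, *Ftl1* and *Hmox1* were most alike (0.81), and *Fth1* and *Ftl1* had an r of 0.14.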

How the data were processed

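The deposited values are UMI counts per gene and barcode, not normalized by the authors, made per the processing notes with Cell Ranger 5.0.1 and mm10, while the matrix headers name versions 3.0.1 (prep 1) and 3.1.0 (prep 3). The lists hold 31053 and 27998 genes, of which 27514 identifiers are shared. Cells needed 250 to 6000 detected genes and a mitochondrial share below 25% (15% for the endothelial subclusters). After log-normalization to 10000, 2000 variable genes were integrated over 30 dimensions and clustered at a resolution of 0.5 with Seurat 5.3.0, R 4.3.3 and Matrix 1.6.5. The steps followed the study's methods, regression of the mitochondrial share included, but in a later Seurat version, with log-normalized values scaled in place of Pearson residuals, a number of variable genes that the study does not give, and the members and the wider iron list taken out. A class needed 3 markers, each found in at least 20% of its cells and at least 2 times the median of the clusters, with 5 CPM added to both. A cluster could thus pass on the markers of more than 1 class. Doublets were called as the barcodes of a library with the highest Scrublet scores in scanpy 1.11.5, and kept. Their number was set by an assumed rate of 0.8% per 1000 barcodes. Counts were summed per class and library, with Python 3.11.15, numpy 2.4.6, scipy 1.17.1, pandas 2.3.3 and matplotlib 3.10.9. Classes with at least 50 cells were compared. Intervals (95%, exact Poisson for levels, conditional binomial for ratios) cover counting error only, not the spread between mice, because the replicates are technical. The call rule was tested on simulated data with counting error as the only spread between replicates and with changes set above the 2-fold limit. It recovered 80.5 to 99% of 200 changed genes per class, and called 4 to 71 unchanged genes per class but 212 in mature oligodendrocyte-like cells. Replicates with further spread and changes near the limit were not simulated. The 8 members and the lists were chosen with earlier results of these data known. The rule for named genes named all members and up to 12 genes of the wider list that were called or highest in a class. It did not rank that list, so those 12 were picked after their values had been seen. It also named the 3 genes most alike to each member and the leading genes of the subclusters described. A cluster's leading genes are no result. Alternatives were other cluster settings, filters, scalings, folds and left-out replicates. The genes most alike in pattern to *Ftl1* are not reported here.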

Additional observations from a re-analysis of the deposited data

How the results depend on the processing

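The number of members called between the preparations stayed at 1 in microglia-like cells under all alternatives. It ranged from 1 to 4 in macrophage-like cells, 1 to 2 in endothelial-like, 2 to 5 in pericyte-like, 0 to 3 in VSMC-like, 1 to 3 in fibroblast-like, 1 to 4 in astrocyte-like, 1 to 3 in mature oligodendrocyte-like and 0 to 5 in neuron-like cells. For macrophage-like cells the 3 members called became 1 at a resolution of 1.0, with cells classed by their own marker UMIs, with shared barcodes left out and at 3-fold. At a resolution of 1.0 and with shared barcodes left out, prep 1 also had a monocyte/neutrophil-like class, of 59 and 58 cells. For VSMC-like cells the 2 called became 1 at a resolution of 0.2 and with doublets left out, 0 with a mitochondrial limit of 10%, and 1 to 3 when a replicate was left out, with 1 without cortex replicate 1 or cortex replicate 3. At a resolution of 0.2 the VSMC-like class was not the same, with 580 cells and 10 of 10 pericyte markers in prep 1 and 266 cells in prep 3. It held 204 and 89 cells at a resolution of 0.5. No pericyte-like class was named in prep 1 at 0.2, so the range of pericyte-like cells leaves that setting out. The 4 in pericyte-like cells became 2 at a resolution of 1.0, where the share of all genes called went from 17.9% to 4.59%. In macrophage-like cells that share went from 8.01% to 5.84% at a resolution of 1.0, 4.64% by own markers, 5.36% without shared barcodes and 2.74% at 3-fold. Under other settings it rose, among them to 12.1% with the mean over cells and 18.5% at 1.5-fold. It was 17.9% with the members kept among the variable genes. The 3 in astrocyte-like cells became 1, and the 5 in neuron-like cells 0, with cells classed by their own marker UMIs. There 8.63% and 17.3% of all genes were called, against 9.6% and 25.1% in the main setting. At 3-fold 1 remained in astrocyte-like (4.00% of all genes) and 1 in mature oligodendrocyte-like cells (7.86%). At 1.5-fold 2 were called in endothelial-like cells (13.3%), and with no minimum of UMIs 3 were called in fibroblast-like cells (8.64%). Fewer or more calls at another fold or minimum follow from the rule itself, and the cause of the other changes was not tested. Of 646 log2 ratios recomputed in microglia-like, macrophage-like, endothelial-like and mature oligodendrocyte-like cells (single ratios of the other 5 classes were not), 604 moved by less than the spread between replicates, 42 moved by more and 0 changed sign while called, and of 153 levels 136 moved by less and 17 by more. *Slc40a1* in mature oligodendrocyte-like cells gave no ratio with cells classed by their own marker UMIs or in the cells with at least 6% of UMIs on the mature list, since 1 preparation then had 0 of its UMIs. *Trf* in mature oligodendrocyte-like cells was called in 19 of 22 settings, with log2 ratios from 0.44 to 1.88, among them 0.48 in the cells with at least 6% of UMIs on the mature list, an alternative chosen after seeing the data. Among classes compared between both preparations, which leaves out OPC-like cells, the highest was the same in both for 6 to 8 members. No paired analysis was possible because replicate numbers mark technical replicates of different suspensions and no test was made. Levels of classes under 100 cells and of genes with few UMIs rest on little depth.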
